A study of Mus musculus with 6 samples.

Results

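The 10 genes described here, Tead4, Tfap2c, Klf5, Cdx2, Gata3, Eomes, Elf5, Ets2, Ascl2 and Id2, encode transcription regulators of the trophectoderm, the outer epithelium of the blastocyst. They were taken by gene symbol from mouse Agilent expression arrays, with Tfap2c matched through its earlier symbol Tcfap2c, and made up 10 of 27597 gene names and 12 of 41174 probes. The arrays measured climacteric blastocysts (2 arrays), young blastocysts (2 arrays), climacteric ooplasts (1 array) and young ooplasts (1 array), all from the B6C3 F1 mouse strain. Ooplasts are oocytes without their chromosomes, and climacteric and young are the age classes the labels give, with no age in weeks. The labels call the replicates biological but name no animals, and neither the number of pooled ooplasts or embryos nor how the blastocysts were made is given in the sources used here.

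The trophectoderm arises when outer cells of the morula turn off Hippo signalling, so that YAP enters the nucleus and joins the DNA-binding factor TEAD4. Cdx2 and Gata3 are turned on downstream, and TFAP2C and KLF5 act alongside TEAD4. EOMES, ELF5 and ETS2 then keep trophoblast stem cells dividing, ASCL2 acts in the later ectoplacental lineage, and ID2 holds back E proteins, the partners of basic helix-loop-helix factors. The blastocyst's inner cell mass instead keeps Pou5f1, Nanog and Sox2.

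The start regions of 3 members that were brighter in blastocysts are printed because they hold the AP-2 and TEAD matches found among the members' windows. The windows are the 250 bases before each RefSeq start in GRCm38.p6, written 5′ to 3′ on the gene's strand, with matches to AP-2 (GCCNNNGGC, the family of TFAP2C) and TEAD (GGAATG, either strand) motifs in capitals.
Cdx2 (chr5:147307250-147307499, minus strand, 13 CpG): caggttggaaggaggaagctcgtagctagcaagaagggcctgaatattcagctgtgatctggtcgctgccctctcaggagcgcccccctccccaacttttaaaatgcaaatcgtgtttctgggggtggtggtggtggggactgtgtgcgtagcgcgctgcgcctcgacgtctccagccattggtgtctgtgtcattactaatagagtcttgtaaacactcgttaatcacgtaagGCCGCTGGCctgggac
Gata3 (chr2:9878601-9878850, minus strand, 19 CpG): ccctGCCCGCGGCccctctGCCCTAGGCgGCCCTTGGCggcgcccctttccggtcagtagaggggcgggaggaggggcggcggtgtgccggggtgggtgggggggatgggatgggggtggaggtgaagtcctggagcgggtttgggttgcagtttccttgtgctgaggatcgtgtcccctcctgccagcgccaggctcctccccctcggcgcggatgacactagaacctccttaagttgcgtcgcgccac
Elf5 (chr2:103411848-103412097, plus strand, 2 CpG): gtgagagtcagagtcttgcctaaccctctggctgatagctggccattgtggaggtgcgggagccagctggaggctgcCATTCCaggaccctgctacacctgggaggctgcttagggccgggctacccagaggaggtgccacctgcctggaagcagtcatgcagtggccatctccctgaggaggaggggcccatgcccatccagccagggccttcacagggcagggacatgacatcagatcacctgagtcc

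In the Gata3 window 3 AP-2 matches began 246, 231 and 221 bases before the start, and in the Cdx2 window 1 began 16 bases before it. The Elf5 window held 1 TEAD match, 173 bases before the start, and 2 CpG, against a median of 6 in all 32851 mouse windows. A second Elf5 window, not printed, held 8 CpG and no TEAD match. Of all windows, 13.7% held an AP-2 match and 12.6% a TEAD match, and a match is a description, not a binding site. In all, 7 members had 8 windows, among which the Ets2 window had most CpG (25). Both strands were also searched for the letters of other factor families, and matches of different motifs may overlap. The CDX letters TTTATNG were in none of the members' windows, against 9.81% of all windows. The GATA letters AGATAA were in none either, against 9.99%, and neither were the ETS letters GGAAGT, found in 19.7% of all windows. The T-box letters AGGTGT (11.8% of all windows) matched once each in the Ascl2 window and the printed Elf5 window. The KLF letters GGGCGGG (23.4% of all windows) matched once each in Gata3 and Id2. The E-box letters CANNTG (66.2% of all windows) matched at 4 places in the printed Elf5 window and 2 in Ascl2. They matched once each in Cdx2, Id2 and the second Elf5 window. Tead4, Tfap2c and Klf5 are named only.

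Expression levels are log2 of the deposited processed signal minus the 75th percentile of the array, so 0 marks a probe as bright as that percentile. Between 49.9% and 57.3% of spots were well above background on blastocyst arrays, against 42.2% and 42.4% on ooplast arrays. The tissue labels held for their defining genes: the summed level of 15 oocyte genes was 7.18 to 12.5 in blastocysts and 7968 to 8287 in ooplasts, in units of the 75th percentile. Keratin 18 stood at 9.13 ± 0.17 in blastocysts (SD, n = 4) and 0.88 ± 0.56 in ooplasts (SD, n = 2). All 10 members were well above background on all 4 blastocyst arrays, 4 of them on both ooplast arrays, Cdx2 on the young ooplast array alone, and 5 on neither. RNA was measured in bulk, so fewer cells of a type and less RNA per cell cannot be told apart.

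**Figure D1:**
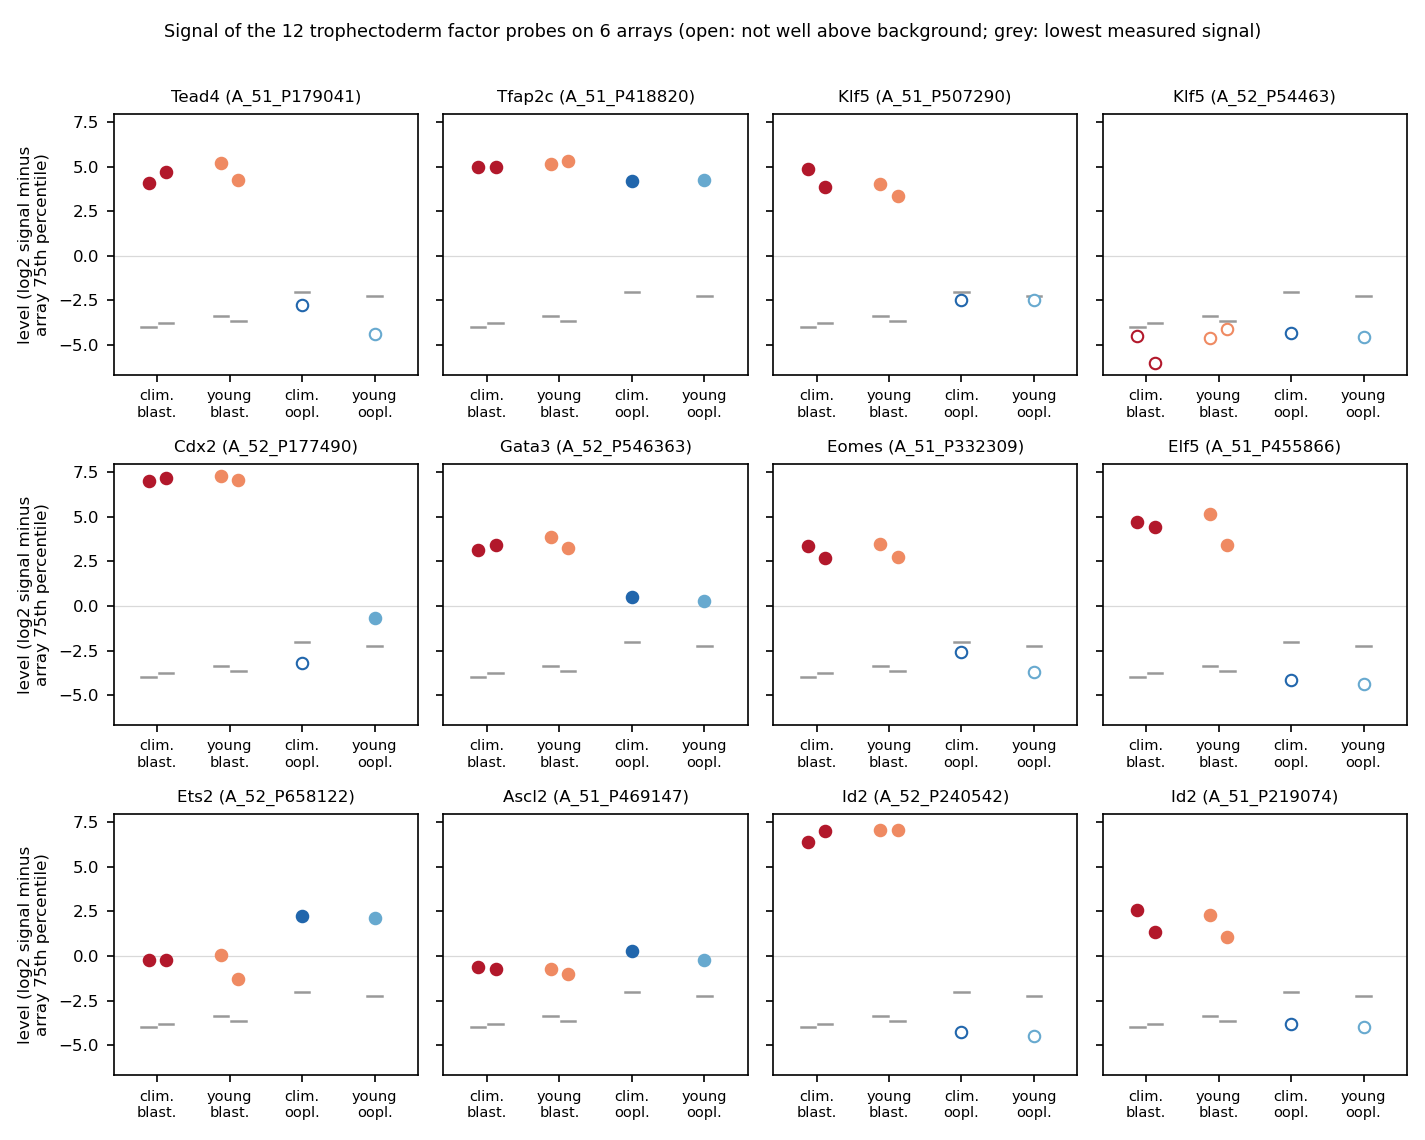
Level of the 12 probes of the 10 factors on every array, as log2 of the processed signal minus the array's 75th percentile, with blastocysts left of ooplasts, climacteric before young. Filled points are well above background and open points are not, and grey marks show each array's lowest signal well above background. Tfap2c, Gata3, Ets2 and Ascl2 are filled on both ooplast arrays.

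Among the factors at the start of the programme, Tfap2c, an AP-2 factor (chr2:172249565-172249624), was bright at both stages. It stood at 4.95 and 4.997 in climacteric blastocysts and 5.14 and 5.29 in young blastocysts, against 4.19 in climacteric ooplasts and 4.24 in young ooplasts. All 4 blastocyst values lay above both ooplast values. The difference of 0.88 (SE 0.24, 95% interval 0.30 to 1.45, 1.84-fold) had an adjusted p of 0.0148 in limma. It was 0.78 with an adjusted p of 0.094 in limma without the young ooplast array, and 0.97 with 0.055 without the climacteric one.

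Tead4, which binds DNA for YAP (probe at mm8 chr6:128192978-128193037), stood at 4.10 and 4.71 in climacteric blastocysts and 5.21 and 4.24 in young blastocysts, and was not well above background in ooplasts (-2.73 climacteric, -4.36 young). Blastocysts were at least 105-fold higher, the bound being set by the dimmest probe well above background on each ooplast array (limma, adjusted p = 3.38e-05). Klf5, a zinc-finger factor needed for trophectoderm growth (chr14:98186571-98196303), stood at 4.89 and 3.88 in climacteric blastocysts and 4.04 and 3.35 in young blastocysts, with ooplasts at -2.49 and -2.50, not well above background. It was at least 72.6-fold higher in blastocysts (limma, adjusted p = 2.72e-05). Its second probe, whose mm8 position chr14:98188052-98188111 lies within the interval of the first, was well above background on no array.

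Cdx2, the homeodomain factor that opposes the pluripotency programme in outer cells (chr5:147611320-147611379), was bright and even across blastocysts. Its levels were 6.98 and 7.17 in climacteric blastocysts and 7.27 and 7.05 in young blastocysts, against -3.20 in climacteric ooplasts (not above background) and -0.67 in young ooplasts. With the climacteric ooplast array held at its lowest signal well above background, blastocysts were at least 355-fold higher than the ooplast mean (limma, adjusted p = 2.51e-05). The fit without that array, which leaves the young ooplast array that measured Cdx2, gave a log2 difference of 7.83, smaller than that bound.

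Gata3, a zinc-finger factor acting beside Cdx2 (chr2:9775209-9775268), was measured on all 6 arrays. Climacteric blastocysts had 3.14 and 3.41 and young blastocysts 3.88 and 3.22, against 0.48 in climacteric ooplasts and 0.27 in young ooplasts. It was 3.04 higher in blastocysts (SE 0.30, 8.20-fold; limma, adjusted p = 0.000185), with no overlap. Eomes, a T-box factor of trophoblast stem cells (chr9:118333866-118333925), had 3.37 and 2.70 in climacteric blastocysts and 3.45 and 2.77 in young blastocysts, against -2.55 and -3.70 in ooplasts, neither above background. It was at least 37.1-fold higher in blastocysts (limma, adjusted p = 3.44e-05).

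The factors of trophoblast stem cell upkeep differed in direction. Elf5, an ETS factor (chr2:103251640-103251699), stood at 4.70 and 4.40 in climacteric blastocysts and 5.18 and 3.41 in young blastocysts, with the ooplasts at -4.17 and -4.40, not well above background, giving at least 94.8-fold higher (limma, adjusted p = 2.15e-05). Ets2, another ETS factor (chr16:95829418-95829477), was instead brighter in ooplasts. It had -0.25 and -0.22 in climacteric blastocysts and 0.04 and -1.30 in young blastocysts, against 2.26 in climacteric ooplasts and 2.15 in young ooplasts, a difference of -2.64 (SE 0.41, 6.24-fold lower; limma, adjusted p = 0.00129).

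Ascl2, a basic helix-loop-helix factor and imprinted gene (chr7:142777924-142777983), stood at -0.63 and -0.75 in climacteric blastocysts and -0.72 and -0.99 in young blastocysts, against 0.30 in climacteric ooplasts and -0.25 in young ooplasts. The difference was -0.80 (SE 0.25; limma, adjusted p = 0.0275), against a median of -0.26 over all genes tested. Before scaling, its signal was higher in blastocysts, 439 to 686 units, than in ooplasts, 292 climacteric and 198 young. The call was lost without any array other than young blastocyst replicate 1 (differences -0.99 to -0.60), and with the slide as a block (-0.70, adjusted p = 0.088 in limma).

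Id2, an inhibitor that lacks a DNA-binding region, had the highest bound of the 6 members not measured on both ooplast arrays. One probe (chr12:25683119-25683178) stood at 6.37 and 6.998 in climacteric blastocysts and 7.07 and 7.06 in young blastocysts, with ooplasts at -4.27 and -4.47, not well above background, so blastocysts were at least 518-fold higher (limma, adjusted p = 6.92e-06). Its other probe (chr12:25684398-25684745) had 2.57 and 1.33 in climacteric blastocysts and 2.29 and 1.04 in young blastocysts, against -3.80 and -3.95, at least 15.4-fold (limma, every probe on its own, adjusted p = 9.50e-05). Neither probe was well above background on an ooplast array, so their shared direction is not support.

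**Figure D2:**
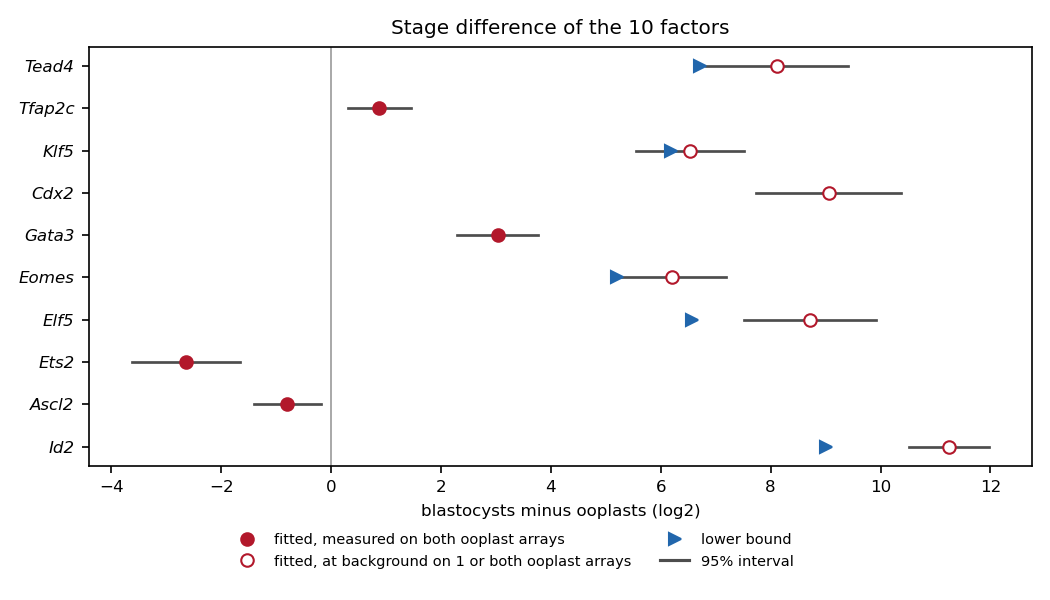
Fitted difference between blastocysts and ooplasts for each factor on the log2 scale, with its 95% interval; open points are members not well above background on 1 or both ooplast arrays, and triangles are lower bounds. Ets2 and Ascl2 lie below 0, at -2.64 and -0.80, and the other members above it.

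Of all 15605 genes tested, 74.5% passed the threshold between stages, 35.5% higher and 39.0% lower in blastocysts, and in 79.5% the stages did not overlap. The 10 members, 8 higher and 2 lower with no overlap, are to be read against that. Of them 6, Cdx2 included, passed the filter on dim probes through blastocysts alone. Their rise and adjusted p therefore partly reflect the filter and are not support. The same limit holds for any list gene not well above background on both ooplast arrays, and for its adjusted p. Among such list genes the difference was 0.55 for Bmp4. For Ets1, above background on 1 of 2 ooplast arrays, it was -1.93, and another probe passing through blastocysts alone gave 0.09. Over the 5 scalings, background correction included, the fitted difference spanned over 1.5 on the log2 scale for these 6 members. The ranges were Tead4 5.79 to 8.91, Klf5 5.15 to 6.87, Eomes 4.02 to 6.56, Elf5 5.84 to 9.90, Id2 8.61 to 12.59 and Cdx2 7.91 to 9.49. Each member kept its direction in all 5 scalings, which moved the median of all genes between -0.48 and -0.14. The bounds hold on the 75th percentile scaling alone. With the normexp background correction the fitted differences of the 6 members that passed through blastocysts alone lay under them. On the log2 scale Tead4 had 5.79 against a bound of 6.71, and Eomes 4.02 against 5.21.

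**Figure D3:**
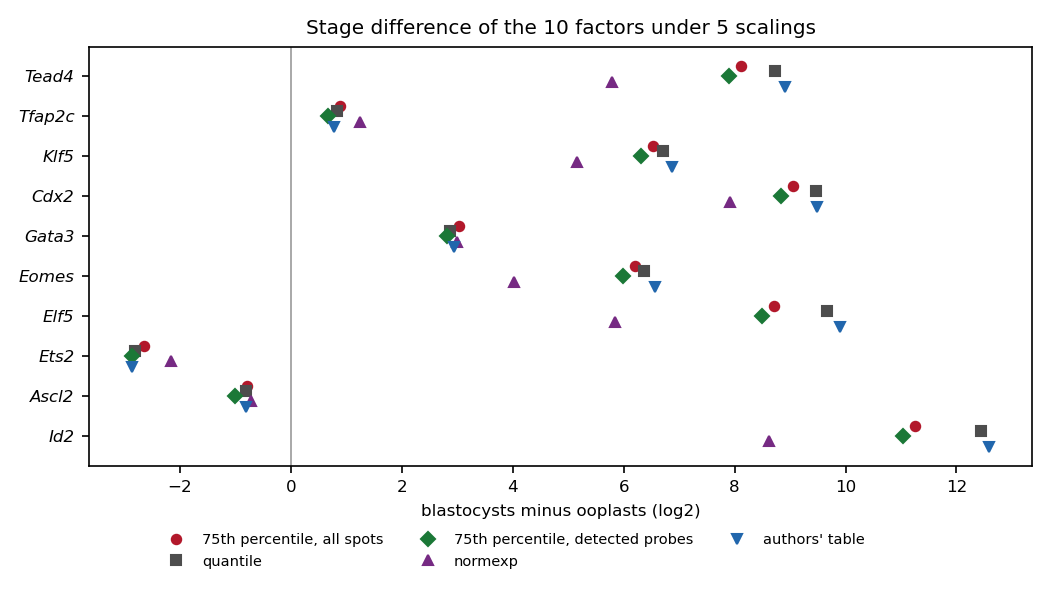
Stage difference of each factor on the log2 scale under 5 scalings of the arrays, blastocysts minus ooplasts. Every factor keeps its side of 0, and the spread is widest where ooplast signal is near background.

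Partners of TEAD4 moved in both directions. Yap1, the cofactor that TEAD4 binds, fell by 3.92 in blastocysts (SE 0.30; limma, adjusted p = 5.69e-05), while its paralogue Wwtr1 was higher (adjusted p = 0.00139 in limma), with its main probe above background on 1 of 2 ooplast arrays and its other probe on neither, so no size is given. Tead1 and Tead2, close relatives, were 4.11 and 2.92 higher by their brightest probes, and Tead3 did not pass the filter. Of 22 tested Hippo and Notch inputs 7 rose, 2 of them not above background on both ooplast arrays, and 9 fell (median -0.05, all genes -0.26). Prkcz, an apical kinase of polarity, rose by 8.48 and its sister Prkci had -3.24, though other Prkcz probes gave 2.84 and 5.45.

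Of 16 tested further trophoblast factors 10 rose, 7 of them not above background on both ooplast arrays, and 2 fell (median 1.74; 0.23 over the 9 above background on all arrays). Gata2, a relative of Gata3 measured on 1 of 2 ooplast arrays, was higher (limma, adjusted p = 0.000125). Grhl2 and Tfap2a were 4.77 and 1.60 higher, and Hand1, above background on no ooplast array, at least 4.7-fold. Arid3a and Bhlhe40 fell, with differences of -3.05 and -2.17. Among 23 tested family relatives of the members 8 rose, 3 of them not above background on both ooplast arrays, and 8 fell (median -0.64), among them Klf6 (6.12, other probe 2.996) and Elf2 (-2.99). Erg also fell, but was above background on 1 of 4 blastocyst arrays, so no size is given.

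All 3 E proteins, which ID2 binds, fell, with differences of -3.87 for Tcf3, -1.45 for Tcf4 and -3.02 for Tcf12. For Tcf12, 2 other probes measured on all arrays gave 2.08 and 1.27 in the other direction. Of 29 tested epithelial genes 21 rose, 11 of them not above background on both ooplast arrays, and 5 fell (median 3.31). Over the 17 above background on all arrays 10 rose and 4 fell (median 1.08), keratin 18 by 8.25, while Plac8 fell by 6.74. Lrp2 passed through a probe above background on 1 of 2 ooplast arrays, and its probe measured on all arrays gave 6.87. Fgfr2, the receptor for inner cell mass FGF4, was above background on no ooplast array by this probe and at least 1.5-fold higher (limma, adjusted p = 0.0150).

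Factors of the inner cell mass, which oppose Cdx2, were also measured. Pou5f1 did not differ beyond its error (0.25, SE 0.39; limma, adjusted p = 0.575), and Nanog and Sox2, above background on no ooplast array, were at least 3.8-fold and 1.9-fold higher in blastocysts (limma, adjusted p = 9.96e-05 and 0.0144). Of 17 tested inner cell mass genes 8 rose, 6 of them not above background on both ooplast arrays, and 3 fell (median 1.24; 0.25 over the 9 genes above background on all arrays). In primitive endoderm, of 9 tested 6 rose, 3 of them not above background on both ooplast arrays, and 1 fell (median 2.89). Gata6 and Sox17 were 5.06 and 3.06 higher by their brightest probes, but another probe of each, above background on all arrays, gave -1.52 for Gata6 and -0.82 for Sox17. Gata4, above background on 3 of 4 blastocyst arrays, was lower. Of 14 tested oocyte genes 14 fell, 8 of them not above background on all blastocyst arrays (median -7.82), of 10 tested cumulus genes 7 fell, 3 of them likewise, and 1 rose (median -4.49), and of 5 tested macrophage genes 2 fell (median -0.78). Lists were chosen with earlier results of these data known, so their counts are not independent evidence.

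**Figure D4:**
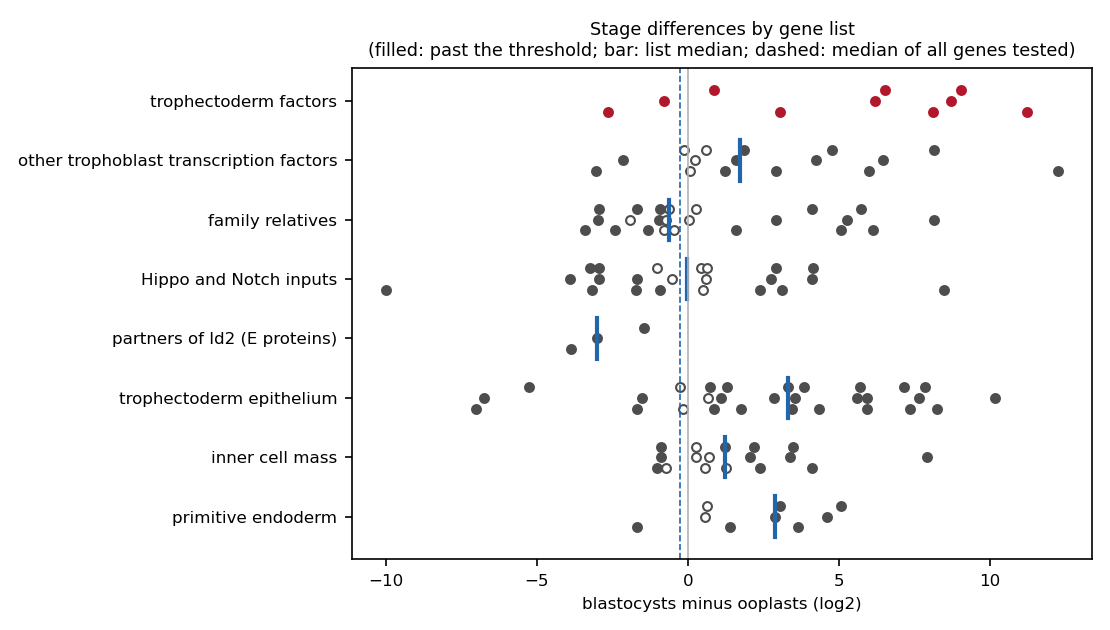
Stage difference on the log2 scale of every tested gene in the lists shown, filled where past the threshold; bars mark list medians (none drawn for the trophectoderm factors) and the dashed line the median of all genes. The E proteins all lie below 0 and the epithelial genes mostly above it.

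Age was compared over 2 climacteric and 2 young blastocyst arrays, and no gene of 15971 tested passed the threshold in limma (0%; 864 at an unadjusted p under 0.05, none a member). The members' differences, climacteric minus young, were positive for 4 and negative for 6. Klf5 was 0.69 (95% interval -0.50 to 1.88) and Elf5 0.26 (-1.32 to 1.83). Id2 was -0.38 by its brighter probe (-1.23 to 0.47), Tead4 -0.32 (-1.46 to 0.82) and Gata3 -0.28 (-1.16 to 0.61). Ets2 was 0.40 (-0.86 to 1.66) and Eomes -0.07 (-1.10 to 0.95). The interval stayed within 2-fold for Cdx2 (-0.82 to 0.64), Ascl2 (-0.57 to 0.89) and Tfap2c (-0.95 to 0.46), and the intervals of the other 7 members allow larger differences.

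Replicate 1 blastocysts shared a slide with both ooplast arrays, and replicate 2 blastocysts lay on another slide. The age difference had opposite signs on these 2 slides for 5 members: Tead4 had -1.11 on the first slide and 0.47 on the second, and Ets2 -0.28 and 1.08. In Tfap2c and the brighter Id2 probe both climacteric arrays lay below both young ones, as in 2202 of all 15971 genes tested. Without overlap in either direction were 30.0% of all genes. The other Id2 probe, above background on all 4 blastocyst arrays, went the other way, with 0.27 on the first slide and 0.28 on the second. Young blastocyst replicate 1 was the highest array for 7 members. Climacteric blastocyst replicate 1 was the lowest for 5 and young blastocyst replicate 2 for 4. No share over all genes is given beside these counts. On climacteric blastocyst replicate 1, 9 of 14 macrophage markers were above background with a summed level of 42.1, against 5 to 7 markers and 3.44 to 3.72 on the other blastocyst arrays; Lyz2 had 5.07 and Ctss 1.73 there, and Itgam and C1qa were above background on no array. Their part in the members' differences was not tested. Without climacteric blastocyst replicate 1 the age difference was 0.18 for Klf5 and -0.07 for the brighter Id2 probe. It was -0.41 for Eomes, 0.41 for Ets2 and -0.22 for Tfap2c.

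**Figure D5:**
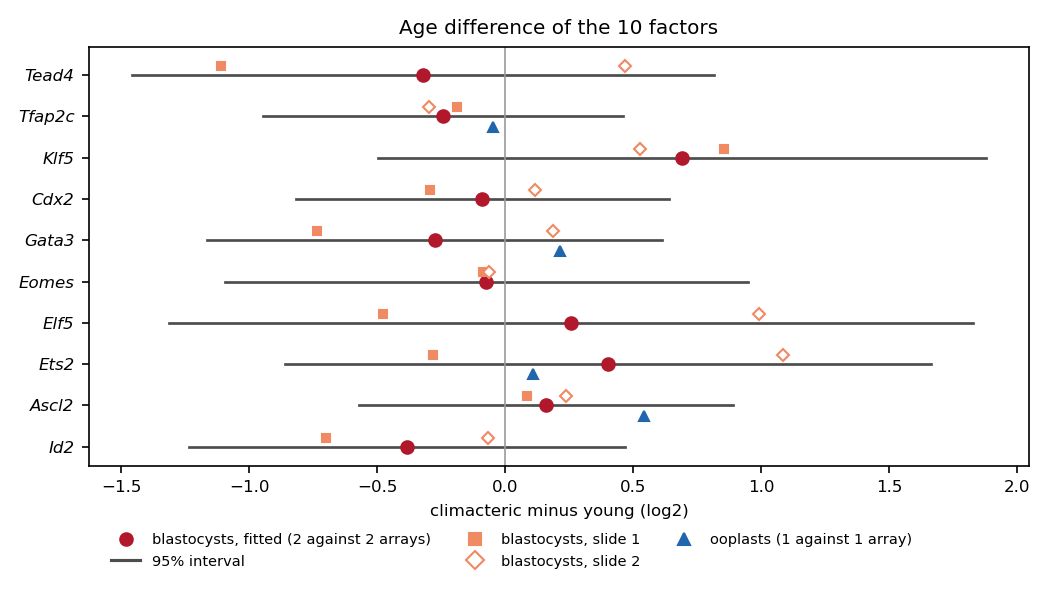
Difference between climacteric and young blastocysts for each factor on the log2 scale (circle) with its 95% interval, and within slide 1 (squares) and slide 2 (diamonds); triangles are the ooplast difference of the 4 factors measured on both ooplast arrays. All intervals include 0.

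In ooplasts each age has 1 array, so no test was run. The 4 members measured on both arrays differed, climacteric minus young, by 0.54 (Ascl2), 0.21 (Gata3), 0.11 (Ets2) and -0.05 (Tfap2c), none reaching 2-fold, against 17.2% of 12291 genes that did. Under other scalings Ascl2 ranged from 0.25 to 0.74, and Tfap2c turned to 0.21 (quantile), 0.14 (detected probes) and 0.20 (the authors' deposited table). Cdx2 was at least 2.58-fold lower in climacteric ooplasts, above background on the young array alone. The share of 17.2% does not cover such genes. Epithelial genes summed to 336 in climacteric and 640 in young ooplasts, and inner cell mass genes to 227 and 458. Primitive endoderm genes went the other way, with 98.4 and 69.1. On these arrays the cumulus markers summed to 97.2 in climacteric and 442 in young ooplasts, with 9 of 16 above background on each. The young sum came mostly from 1 Inha probe, at 2.80 in climacteric and 8.44 in young ooplasts. The other Inha probe had -0.41 and -0.58, and Cyp19a1 6.22 and 6.30. Macrophage markers summed to 48.3 in climacteric and 4.30 in young ooplasts, with 11 and 5 of 14 above background. The part of these markers was not tested.

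By root mean square difference of centred log2 levels over the 6 arrays, the genes most like Cdx2 were Elovl6 (0.20), Grtp1 (0.40), Cdc5l (0.41), Eif1a (0.46) and Myh10 (0.46). Of these, Elovl6, Grtp1 and Myh10 were above background on 1 of 2 ooplast arrays and Eif1a on neither. Their likeness to Cdx2 in ooplasts therefore rests partly on signal at background. Elovl6, a fatty acid elongase, had 7.25 and 7.22 in climacteric blastocysts and 7.29 and 7.07 in young blastocysts, against -2.90 in climacteric ooplasts (not above background) and -0.10 in young ooplasts.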

How the data were processed

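Single-colour (Cy3) Agilent arrays of 6 samples were read as deposited. Per the labels' protocols, RNA was purified on columns without DNase, amplified and labelled. Per the submitters' processing notes, Agilent Feature Extraction 9.5 was used, and the deposited processed signal is an intensity per spot, background-subtracted per the file headers, with probes placed on mm8. The value table deposited by the authors is on a log2 scale, and its columns followed a quantile normalization of the processed signal within 0.00075, and each column's median was 6.25. The scanner files' flag of probes well above background is a yes or no per spot.

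Each array was scaled by subtracting the 75th percentile of its log2 signals. Probes had to be flagged well above background throughout 1 or more of the groups compared, and the brightest such probe represented its gene. Stages were compared over 6 arrays with age as a term, and ages over 4 blastocyst arrays, by two-sided tests in limma 3.58.1 (R 4.3.3), adjusting p over all genes by Benjamini-Hochberg, with a threshold of 0.05. The code was tested on simulated data. A bound ("at least") sets the blastocyst mean against, per ooplast array, the higher of the dimmest signal well above background and the probe's own. It holds on the 75th percentile scaling alone. No animals are named, so p-values reflect only the variation among these arrays. Members and lists were chosen with earlier results of these data known; list genes were named by their largest changes in each direction, plus direct partners; 1 gene that this names is not reported here. Alternatives were other scalings, filters, blocks and left-out arrays. Array number limits the precision. Probe positions in mm8 and promoters in GRCm38.p6 were never mixed; exon positions are not given. Replicate numbers match slides: both ooplast arrays and replicate 1 blastocysts are on one slide, replicate 2 blastocysts on the other, and the correlation of same-numbered deviations (0.17, 2 pairs) cannot show pairing.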

Additional observations from a re-analysis of the deposited data

Results flagged for a closer look

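The brighter Id2 probe had 1 blastocyst array apart from the others: climacteric blastocyst replicate 1 stood at 6.37, and the others between 6.998 and 7.07. The gap was 0.897 of the range of the 4 arrays, above the 95% critical value of Dixon's test. Chance flags about 1 in 20 groups, and 11 member probes were checked. The second Id2 probe did not stand apart (0.187 of its range).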

How the results depend on the processing

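Stage: every member kept its direction under every alternative that gave it a value. With probes above background on all arrays, only 4 members were tested, and 4 were called, against 8107 of all 10910 genes tested (74.3%). With no filter 19945 of 27597 genes were called. The replicate block, which is also the slide, took the call from Ascl2 (-0.70, adjusted p = 0.088 in limma) and changed no other member's call. Slide 1 alone took the calls from Ascl2 (-0.70, 0.17) and Tfap2c (0.83, 0.11). Leaving out 1 array gave Ascl2 -0.99 to -0.60 and Tfap2c 0.78 to 0.97.

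Age: no member was called under any alternative, and left-out arrays gave 0 to 1 genes called in all. Differences with no call changed sign for Cdx2 (0.0330 scaled on detected probes; -0.20 to 0.0201 leaving out 1 array), Eomes (0.0702 with quantile, 0.0482 scaled on detected probes, 0.0763 in the authors' deposited table; -0.42 to 0.27), Elf5 (-0.63 to 1.14), Ets2 (-0.27 to 1.07), Gata3 (-0.60 to 0.0507) and Tead4 (-0.81 to 0.16). In ooplasts 1352 genes were at least 2-fold apart with normexp, against 2117; the cause was not tested. The higher and lower split moved with scaling: 905 and 1212 in the main setting, 1583 and 917 scaled on detected probes. Ooplast signal near background limits 6 members. An age by stage comparison, chosen after seeing the data, is not reported, since each ooplast age has 1 array.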
